A study of Homo sapiens with 9 samples.

Results

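The mRNAs examined here encode the machinery that carries newly made proteins into the endoplasmic reticulum (ER) and on towards the Golgi. They are 57 genes chosen by pathway, with earlier results of these data known, out of 18665 genes named on the arrays. They cover the signal recognition particle (SRP) and its receptor, the translocon and its associated TRAP complex, the signal peptidase, the oligosaccharyltransferase, the TMED and other cargo receptors, and the COPII coat with its fusion factors. Of the 57 genes, 53 had a probe (76 probes in all) and all 53 passed the filter on low signal, among 13118 genes tested. SEC61G, KDELR2, SEC13 and SEC31A were not analysed here.

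Cytoplasmic RNA came from HCT116, a human colorectal carcinoma cell line, 72 h after siRNA transfection against GANP, against NXF1 or with a control siRNA, and was obtained by permeabilising the cells with digitonin. Each of the 3 groups had 3 Illumina HumanWG-6 v3 arrays, 1 in each of experiments 1, 2 and 3, and no other allele or agent is given for any group. GANP, encoded by MCM3AP, is the scaffold of the TREX-2 complex, and NXF1 is the main receptor for bulk mRNA export. The study's methods describe the RNA as coming from separate depletion experiments, so the p-values measure the spread between those experiments.

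Signals are given as log2 signal (normalized array brightness), in which 1 unit is a doubling. A log2 fold change is the difference between group means, given with its standard error (SE) and limma's Benjamini-Hochberg adjusted p over all genes tested. Calls required a log2 fold change past 0.25 in either direction and an adjusted p under 0.05, and "rose" and "fell" are used only of called genes. MCM3AP fell by 1.04 on the log2 scale after GANP siRNA (SE 0.10, adjusted p = 7.0e-05), and no probe carried the symbol NXF1. Markers of colon epithelium passed the filter for 6 of 10 genes, with CDX1, VIL1, LGALS4 and CEACAM5 below it. Equal amounts of RNA were amplified and the arrays were normalized to a common distribution, so every change is relative to the other mRNAs of an array, and whether mRNAs bound to the ER were recovered in full is not given in the sources used here.

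In cells, SRP binds a signal sequence as it leaves the ribosome and docks at the SRP receptor on the ER membrane, where the chain passes into the SEC61 channel. The signal peptidase removes the signal sequence and the oligosaccharyltransferase adds N-linked glycans while the chain is still entering. Folded cargo is then gathered by receptors such as the TMED proteins, SURF4 and LMAN1 into vesicles formed by the small GTPase SAR1 and the SEC23, SEC24, SEC13 and SEC31 proteins of the COPII coat, and KDEL receptors return escaped ER residents from the Golgi. Many of these genes are known targets of the ER stress transcription factors XBP1 and ATF6.

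After NXF1 siRNA, 17 of the 53 measured genes rose (32.1%) and 3 fell (5.66%), whereas 11.6% of all genes tested rose and 14% fell. The median log2 fold change of the 53 genes was 0.20, beside -0.00 for all genes, and 41 lay above 0. On 24 of them all 3 NXF1 siRNA arrays lay above all 3 control arrays (18.7% of all genes tested did so), and on 3 they lay below (21% of all genes). After GANP siRNA, 3 rose (5.66%) and 0 fell, where 6.28% of all genes rose and 5.9% fell. In this fit without a block the share that rose was close to that of all genes. At an unadjusted p under 0.05 the limma fit after GANP siRNA gave 8 genes higher and 0 lower past the fold threshold. At any size of change 1 was lower. The share of all genes at this unadjusted p is not given here, so these counts cannot be set against it. With the experiment number as a block, 8 of the 53 genes rose after GANP siRNA, where 9.1% of all genes did, and 0 fell, where 8.49% did. Without a block, all 3 were lost without control array 2 (0 called), and without control array 3 or GANP array 2, where the 1 gene called was another (SEC24D and KDELR1 respectively). Without GANP array 1 SEC23B was still called, and without GANP array 3 SEC23A, 1 gene each, and the 3 that fell after NXF1 siRNA became 1 without control array 2 or NXF1 array 3. The median after GANP siRNA was 0.09 (0.00 for all genes), all 3 GANP siRNA arrays lay above the controls on 10 genes (15.8% of all genes) and below them on 4 (15.5% of all genes).

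Array by array, the median difference of the 53 genes from the control mean was 0.16, 0.27 and 0.15 on the NXF1 siRNA arrays of experiments 1, 2 and 3. On the GANP siRNA arrays it was 0.02, 0.04 and 0.13, and on the control arrays 0.04, 0.01 and -0.02. The 3 NXF1 siRNA arrays were therefore the highest, and the GANP siRNA array of experiment 3 lay above the other two of its group.

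**Figure D1:**
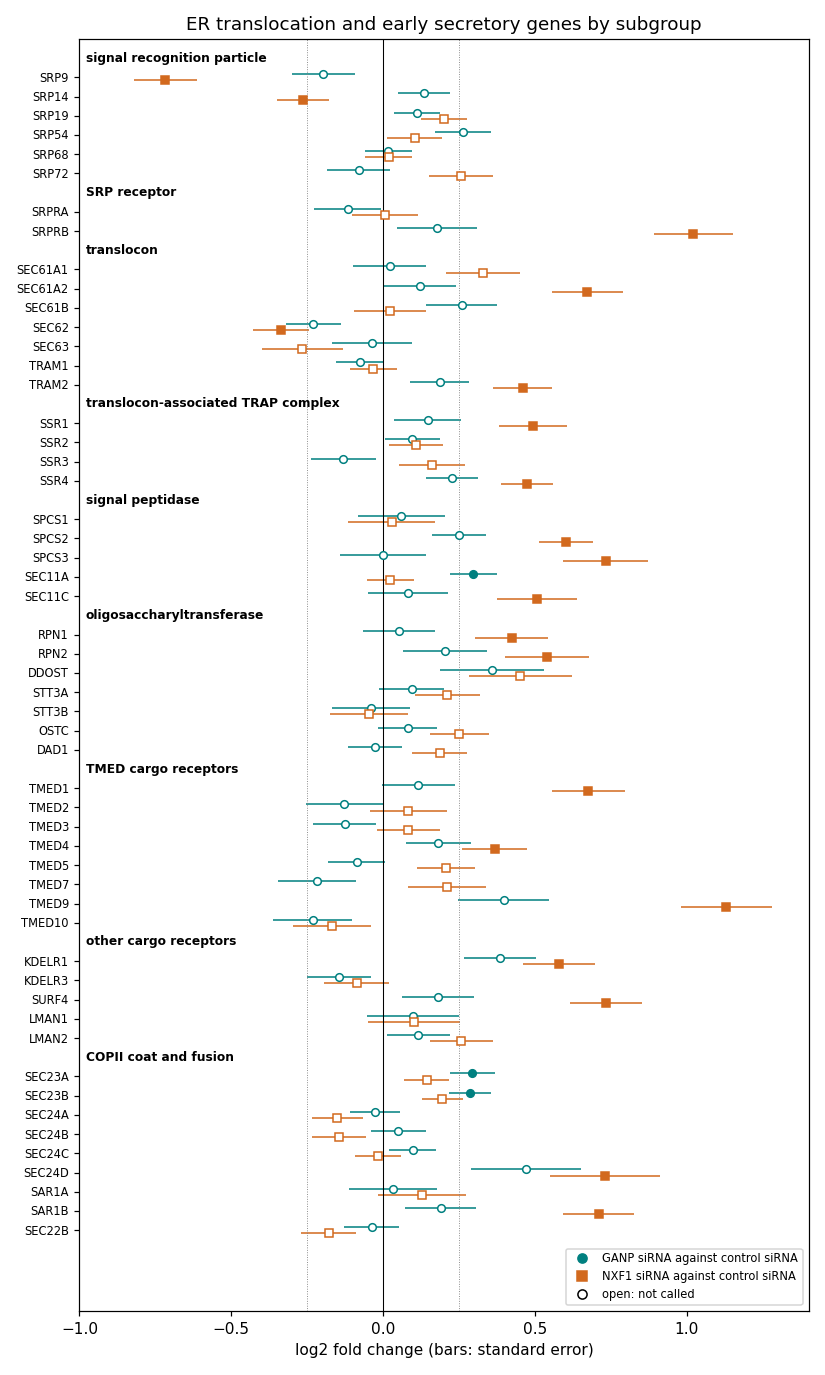
Log2 fold change of the 53 measured genes against control siRNA (x axis, bars are standard errors), by subgroup, after GANP siRNA (circles) and NXF1 siRNA (squares). Filled symbols are called genes, the dotted lines mark -0.25 and 0.25, and 17 squares are filled on the right, 3 on the left, against 3 filled circles.

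Both SRP subunits that fell after NXF1 siRNA belong to one heterodimer, which binds the Alu end of the SRP RNA and slows translation. SRP9 gave log2 signals of 14.03, 14.25 and 14.13 with control siRNA, 13.80, 14.09 and 13.93 with GANP siRNA and 13.36, 13.60 and 13.30 with NXF1 siRNA. All 3 NXF1 siRNA arrays were below every other array, and the GANP and control arrays overlapped. SRP9 fell by 0.72 on the log2 scale after NXF1 siRNA (SE 0.10, adjusted p = 3.0e-04), and its log2 fold change after GANP siRNA was -0.20 (SE 0.10, adjusted p = 0.26). Its partner SRP14 gave 14.80, 14.74 and 14.58 with control siRNA, 14.92, 14.80 and 14.80 with GANP siRNA and 14.55, 14.40 and 14.38 with NXF1 siRNA. Here too the NXF1 siRNA arrays were the lowest, without overlap, and SRP14 fell by 0.26 (SE 0.09, adjusted p = 0.038). That call was lost without control array 1 (adjusted p = 0.12), control array 2 (0.12), GANP array 2 (0.051), NXF1 array 2 (0.11) or NXF1 array 3 (0.12), and in a fit of those 2 groups alone (0.056). In a limma fit over all 48803 probes, neither this probe (adjusted p = 0.078) nor a further SRP14 probe (log2 fold change -0.33, adjusted p = 0.0501) was called.

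The other 4 SRP proteins were not called against control siRNA. SRP54, the GTPase that binds the signal sequence, had a log2 fold change of 0.26 after GANP siRNA (SE 0.09, adjusted p = 0.083), which passed with the experiment number as a block (adjusted p = 0.013). SRP72, which with SRP68 forms the body of the particle, had a log2 fold change of 0.26 after NXF1 siRNA (SE 0.10, adjusted p = 0.092, and adjusted p = 0.030 with the block). SRP68 and SRP19 had log2 fold changes of 0.02 and 0.20 after NXF1 siRNA. RN7SL1, the RNA on which the particle is built, is not polyadenylated as mRNA is, and gave 0.46 after GANP siRNA (adjusted p = 0.070) and 0.35 after NXF1 siRNA (adjusted p = 0.12).

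The receptor subunits of SRP gave unlike values. SRPRB anchors the receptor in the ER membrane, and it gave log2 signals of 10.27, 10.29 and 10.29 with control siRNA, 10.29, 10.33 and 10.75 with GANP siRNA and 11.23, 11.56 and 11.12 with NXF1 siRNA. Every NXF1 siRNA array was above every other array, and in the GANP group the array of experiment 3 stood above the other two. SRPRB rose by 1.02 on the log2 scale after NXF1 siRNA (SE 0.13, adjusted p = 1.4e-04), the second largest rise among the 53 genes. SRPRA, the subunit that docks SRP, gave 8.68, 8.53 and 8.67 with control siRNA against 8.56, 8.57 and 8.77 with NXF1 siRNA, which overlap (log2 fold change 0.01, SE 0.11, adjusted p = 0.98). The difference between the subunits was not tested.

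Within the translocon, 2 of 7 measured genes rose (28.6%, beside 11.6% of all genes tested) and 1 fell (14.3%, beside 14%) after NXF1 siRNA. After GANP siRNA 0 were called, beside 6.28% of all genes up and 5.9% down. SEC61A2, a paralogue of the pore-forming subunit, gave log2 signals of 7.00, 6.65 and 6.48 with control siRNA, 6.73, 6.84 and 6.93 with GANP siRNA and 7.40, 7.45 and 7.30 with NXF1 siRNA. The NXF1 siRNA arrays were highest and the other groups overlapped; SEC61A2 rose by 0.67 (SE 0.12, adjusted p = 0.0011). SEC61A1, the main pore subunit, gave 10.82, 10.64 and 10.65 with control siRNA against 10.98, 11.15 and 10.97 with NXF1 siRNA. These arrays did not overlap either, but the log2 fold change of 0.33 missed the threshold (SE 0.12, adjusted p = 0.063).
TRAM2, a membrane protein related to the translocating chain factor TRAM1, gave 8.39, 8.18 and 7.99 with control siRNA against 8.67, 8.69 and 8.57 with NXF1 siRNA, all 3 above the controls. It rose by 0.46 (SE 0.10, adjusted p = 0.0038), where TRAM1 had a log2 fold change of -0.03 (SE 0.08, adjusted p = 0.81). SEC62, which serves post-translational translocation with SEC63, gave 7.35, 7.42 and 7.32 with control siRNA, 7.06, 7.11 and 7.21 with GANP siRNA and 7.04, 7.18 and 6.85 with NXF1 siRNA. Both depleted groups were below all control arrays. SEC62 fell by 0.34 after NXF1 siRNA (SE 0.09, adjusted p = 0.016), and its log2 fold change after GANP siRNA was -0.23 (SE 0.09, adjusted p = 0.13). The fall was lost without control array 2 (adjusted p = 0.066) or NXF1 array 3 (adjusted p = 0.070). SEC63 had a log2 fold change of -0.27 after NXF1 siRNA (SE 0.13, adjusted p = 0.17, and adjusted p = 0.023 with the block). SEC61B, the small beta subunit, had 0.26 after GANP siRNA (SE 0.12, adjusted p = 0.19, and adjusted p = 0.014 with the block).

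The TRAP complex (SSR1 to SSR4) sits beside the channel and helps certain signal sequences enter it. SSR4 gave log2 signals of 12.10, 12.16 and 12.05 with control siRNA, 12.34, 12.40 and 12.26 with GANP siRNA and 12.59, 12.71 and 12.44 with NXF1 siRNA. The 3 groups did not overlap, with NXF1 siRNA highest and GANP siRNA between. SSR4 rose by 0.47 after NXF1 siRNA (SE 0.09, adjusted p = 0.0014), and its log2 fold change after GANP siRNA was 0.23 (SE 0.09, adjusted p = 0.11). SSR1 gave 10.92, 10.71 and 10.66 with control siRNA against 11.26, 11.39 and 11.12 with NXF1 siRNA, again without overlap, and rose by 0.49 (SE 0.11, adjusted p = 0.0054). SSR3 had a log2 fold change of 0.16 after NXF1 siRNA (SE 0.11, adjusted p = 0.32).

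SSR2 depended on the probe. It has 3 probes that the annotation assigns to the same transcript. The brightest, which stood for the gene, gave 10.13, 10.32 and 10.16 with control siRNA against 10.20, 10.41 and 10.32 with NXF1 siRNA, with overlap and a log2 fold change of 0.11 (SE 0.09, adjusted p = 0.43). The next probe, ILMN_1785037, gave 7.83, 7.88 and 7.79 with control siRNA, 7.98, 7.84 and 8.11 with GANP siRNA and 9.25, 9.40 and 9.16 with NXF1 siRNA. Its NXF1 siRNA arrays were far above all others, with a log2 fold change of 1.44 (SE 0.09, adjusted p = 8.8e-08 in a fit over all 48803 probes, without the signal filter). The third probe, ILMN_1726626, had a log2 fold change of -0.07. With the mean of its probes SSR2 was called, at 0.49 (adjusted p = 2.8e-04). Where these probes lie in the transcript is not given in the sources used here.

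**Figure D2:**
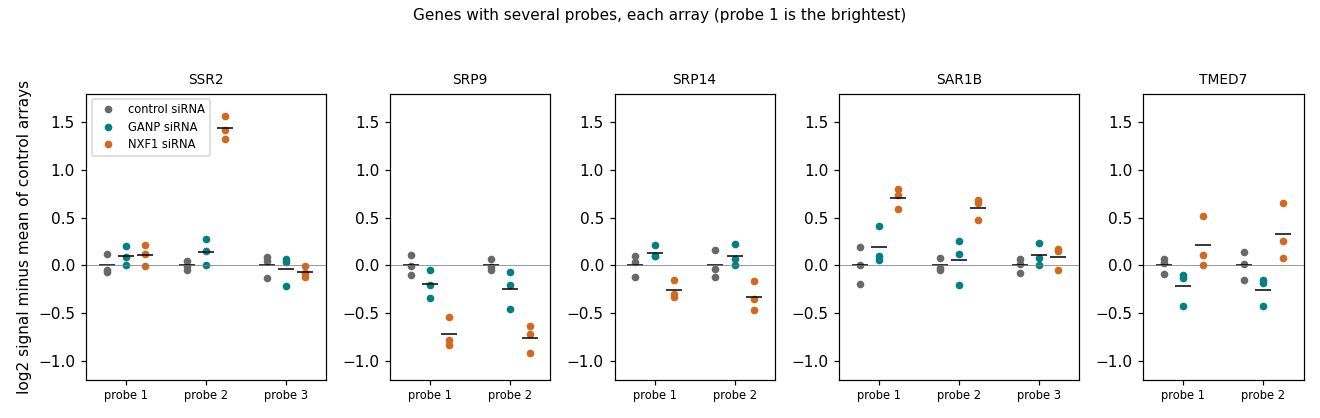
Log2 signal minus the mean of the control arrays (y axis) for each probe of SSR2, SRP9, SRP14, SAR1B and TMED7 (x axis, brightest probe first), with a point per array and a line at each group mean. Probe 2 of SSR2 lies at 1.44 after NXF1 siRNA while probes 1 and 3 lie at 0.11 and -0.07; for SRP9, SRP14 and TMED7 both probes gave values of the same sign.

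Among the 5 signal peptidase genes, 3 rose after NXF1 siRNA (60%, beside 11.6% of all genes tested). A different gene rose after GANP siRNA (20%, beside 6.28% of all genes). SPCS3, an accessory subunit needed for cleavage, gave log2 signals of 8.93, 8.73 and 8.50 with control siRNA, 8.66, 8.78 and 8.71 with GANP siRNA and 9.67, 9.57 and 9.11 with NXF1 siRNA. NXF1 siRNA arrays were above all others, and SPCS3 rose by 0.73 (SE 0.14, adjusted p = 0.0021). SPCS2 gave 11.18, 11.12 and 11.19 with control siRNA, 11.40, 11.28 and 11.56 with GANP siRNA and 11.69, 11.87 and 11.74 with NXF1 siRNA. The groups were ordered control, GANP, NXF1 without overlap, and SPCS2 rose by 0.60 after NXF1 siRNA (SE 0.09, adjusted p = 3.6e-04). The small subunit SPCS1 had a log2 fold change of 0.03 after NXF1 siRNA (SE 0.14, adjusted p = 0.92).
The catalytic paralogues SEC11A and SEC11C were called in different comparisons. SEC11C gave 9.69, 9.57 and 9.61 with control siRNA, 9.64, 9.68 and 9.79 with GANP siRNA and 9.84, 10.50 and 10.06 with NXF1 siRNA. It rose by 0.51 after NXF1 siRNA (SE 0.13, adjusted p = 0.013), with experiment 2 the highest, and the call was lost without control array 2 (adjusted p = 0.051). SEC11A gave 12.98, 13.00 and 12.98 with control siRNA, 13.30, 13.23 and 13.32 with GANP siRNA and 12.89, 13.04 and 13.11 with NXF1 siRNA. Here the GANP siRNA arrays were the highest and the NXF1 and control arrays overlapped. SEC11A rose by 0.30 after GANP siRNA (SE 0.08, adjusted p = 0.027), a call lost when any 1 array of the GANP or control group was left out (adjusted p 0.052 to 0.0895), and had a log2 fold change of 0.02 after NXF1 siRNA (SE 0.08, adjusted p = 0.87).

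Of 7 oligosaccharyltransferase genes, 2 rose after NXF1 siRNA (28.6%, beside 11.6% of all genes tested). After GANP siRNA 0 were called, beside 6.28% of all genes up and 5.9% down. RPN2 gave log2 signals of 7.38, 7.33 and 7.34 with control siRNA, 7.32, 7.46 and 7.87 with GANP siRNA and 7.62, 8.02 and 8.02 with NXF1 siRNA. NXF1 siRNA arrays were above all controls, but the GANP siRNA array of experiment 3 lay among them. RPN2 rose by 0.54 (SE 0.14, adjusted p = 0.011), a call lost without NXF1 array 2 (adjusted p = 0.052). RPN1, which like RPN2 is a membrane subunit that holds the complex at the translocon, gave 12.48, 12.06 and 12.01 with control siRNA against 12.59, 12.66 and 12.57 with NXF1 siRNA. Control array 1 was close to the NXF1 siRNA arrays and the other two were well below. RPN1 rose by 0.42 (SE 0.12, adjusted p = 0.019), and the call was lost without control array 2 (adjusted p = 0.086), control array 3 (0.084) or NXF1 array 2 (0.067).
The catalytic subunits STT3A and STT3B had log2 fold changes of 0.21 (adjusted p = 0.18) and -0.05 (adjusted p = 0.84) after NXF1 siRNA. DDOST, a noncatalytic core subunit, had 0.45 (SE 0.17, adjusted p = 0.068) and OSTC, which links the complex to the channel, 0.25 (SE 0.10, adjusted p = 0.078). Both passed with the experiment number as a block (adjusted p = 0.032 and adjusted p = 0.038), and DAD1 was at 0.19 (adjusted p = 0.15). Of 4 further measured genes of the complex or its partners, KRTCAP2 rose by 0.39 after NXF1 siRNA (SE 0.13, adjusted p = 0.042). MLEC, which encodes the glucose-binding ER lectin malectin, fell by 0.47 after NXF1 siRNA (SE 0.11, adjusted p = 0.0060) and had a log2 fold change of -1.15, also a call, after GANP siRNA (SE 0.11, adjusted p = 7.7e-05). KRTCAP2 lost its call when any of 5 single arrays was left out (GANP 2, NXF1 2, NXF1 3, control 1 or control 3, adjusted p 0.055 to 0.16).

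The TMED genes encode p24 proteins that cycle between ER and Golgi as cargo receptors and coat adaptors. TMED9 gave log2 signals of 9.56, 9.85 and 10.01 with control siRNA, 10.05, 9.99 and 10.56 with GANP siRNA and 10.77, 11.05 and 10.98 with NXF1 siRNA. NXF1 siRNA arrays were the highest, and the GANP and control arrays overlapped at one array each. TMED9 rose by 1.13 after NXF1 siRNA (SE 0.15, adjusted p = 1.8e-04), the largest rise among the 53 genes, and its log2 fold change after GANP siRNA was 0.40 (SE 0.15, adjusted p = 0.11, and adjusted p = 0.022 with the block). TMED1 gave 9.13, 9.09 and 8.93 with control siRNA, 9.28, 9.09 and 9.12 with GANP siRNA and 9.63, 10.02 and 9.52 with NXF1 siRNA. Its NXF1 siRNA arrays did not overlap with the others, and it rose by 0.67 (SE 0.12, adjusted p = 0.0013). TMED4 gave 9.90, 9.83 and 9.63 with control siRNA against 10.34, 10.13 and 9.99 with NXF1 siRNA, and rose by 0.37 (SE 0.11, adjusted p = 0.022). The TMED4 call was lost with the mean of its probes (adjusted p = 0.073) and without NXF1 array 1 (0.081), NXF1 array 2 (0.052), control array 2 (0.051) or control array 3 (0.097).
The remaining 5 TMED genes were not called against control siRNA. TMED2 and TMED10, partners in the p24 complexes, had log2 fold changes of 0.08 (adjusted p = 0.70) and -0.17 (adjusted p = 0.39) after NXF1 siRNA. After GANP siRNA 5 of the 8 TMED genes lay below 0 (6509 of all 13118 genes tested did), with a median of -0.11. Of the 8, 0 were called, beside 6.28% of all genes up and 5.9% down.

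Among other cargo receptors, 2 of 5 measured genes rose after NXF1 siRNA (40%, beside 11.6% of all genes tested). SURF4 retrieves and exports soluble ER cargo, and it gave log2 signals of 9.75, 9.32 and 9.50 with control siRNA, 9.78, 9.52 and 9.80 with GANP siRNA and 10.34, 10.31 and 10.12 with NXF1 siRNA. NXF1 siRNA arrays were the highest, and SURF4 rose by 0.73 (SE 0.12, adjusted p = 6.5e-04). KDELR1, a receptor that returns resident proteins to the ER, gave 10.36, 10.13 and 10.22 with control siRNA, 10.56, 10.39 and 10.92 with GANP siRNA and 10.83, 10.86 and 10.76 with NXF1 siRNA. Both depleted groups were above all controls. KDELR1 rose by 0.58 after NXF1 siRNA (SE 0.12, adjusted p = 0.0032), and its log2 fold change after GANP siRNA was 0.38 (SE 0.12, adjusted p = 0.052, and adjusted p = 0.032 with the block). Its paralogue KDELR3 gave 10.40, 10.37 and 10.21 with control siRNA, and its NXF1 siRNA arrays lay inside, above and below that range (log2 fold change -0.09, adjusted p = 0.61). The lectins LMAN1 and LMAN2, which carry glycoproteins, had 0.10 (adjusted p = 0.69) and 0.26 (SE 0.10, adjusted p = 0.089, and adjusted p = 0.038 with the block) after NXF1 siRNA.

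In the COPII group, SAR1B and SEC24D rose after NXF1 siRNA and SEC23A and SEC23B after GANP siRNA. Each pair made up 2 of 9 measured genes (22.2%), beside 11.6% of all genes tested after NXF1 siRNA and 6.28% after GANP siRNA. SAR1B, a GTPase that starts coat assembly, gave log2 signals of 10.34, 10.72 and 10.54 with control siRNA, 10.59, 10.63 and 10.94 with GANP siRNA and 11.13, 11.27 and 11.33 with NXF1 siRNA. It rose by 0.71 after NXF1 siRNA (SE 0.12, adjusted p = 7.4e-04), with no overlap between NXF1 siRNA arrays and any other. Its paralogue SAR1A gave 8.81, 9.25 and 9.33 with control siRNA against 9.08, 9.40 and 9.29 with NXF1 siRNA, which overlap (log2 fold change 0.13, SE 0.14, adjusted p = 0.58). SEC24D, a cargo-binding subunit, gave 6.68, 7.06 and 7.42 with control siRNA, 7.43, 7.48 and 7.65 with GANP siRNA and 7.41, 7.86 and 8.07 with NXF1 siRNA. NXF1 array 1 lay below control array 3, so these groups overlap across experiments. SEC24D rose by 0.73 (SE 0.18, adjusted p = 0.0094), and its log2 fold change after GANP siRNA was 0.47 (SE 0.18, adjusted p = 0.11, and adjusted p = 0.0076 with the block). The other cargo-binding subunits SEC24A, SEC24B and SEC24C had log2 fold changes of -0.15, -0.15 and -0.02 after NXF1 siRNA, none called.
SEC23A and SEC23B are the paralogues that make the inner coat with SEC24 and activate the SAR1 GTPase. SEC23A gave 9.33, 9.24 and 9.29 with control siRNA, 9.65, 9.57 and 9.52 with GANP siRNA and 9.43, 9.46 and 9.40 with NXF1 siRNA. SEC23B gave 12.14, 12.15 and 12.11 with control siRNA, 12.37, 12.44 and 12.43 with GANP siRNA and 12.34, 12.32 and 12.31 with NXF1 siRNA. For both genes the GANP siRNA arrays were the highest, the NXF1 siRNA arrays lay between, and no groups overlapped. After GANP siRNA SEC23A rose by 0.29 (SE 0.07, adjusted p = 0.021) and SEC23B by 0.28 (SE 0.07, adjusted p = 0.019). After NXF1 siRNA their log2 fold changes were 0.14 (adjusted p = 0.18) and 0.20 (adjusted p = 0.054). Both rises were lost without control array 2 (adjusted p = 0.0875 for SEC23A and 0.057 for SEC23B), control array 3 (0.057 and 0.064) or GANP array 2 (0.058 and 0.066), that of SEC23A also without GANP array 1 (0.069) and that of SEC23B without GANP array 3 (0.066). The vesicle SNARE SEC22B had a log2 fold change of -0.18 after NXF1 siRNA (SE 0.09, adjusted p = 0.17).

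**Figure D3:**
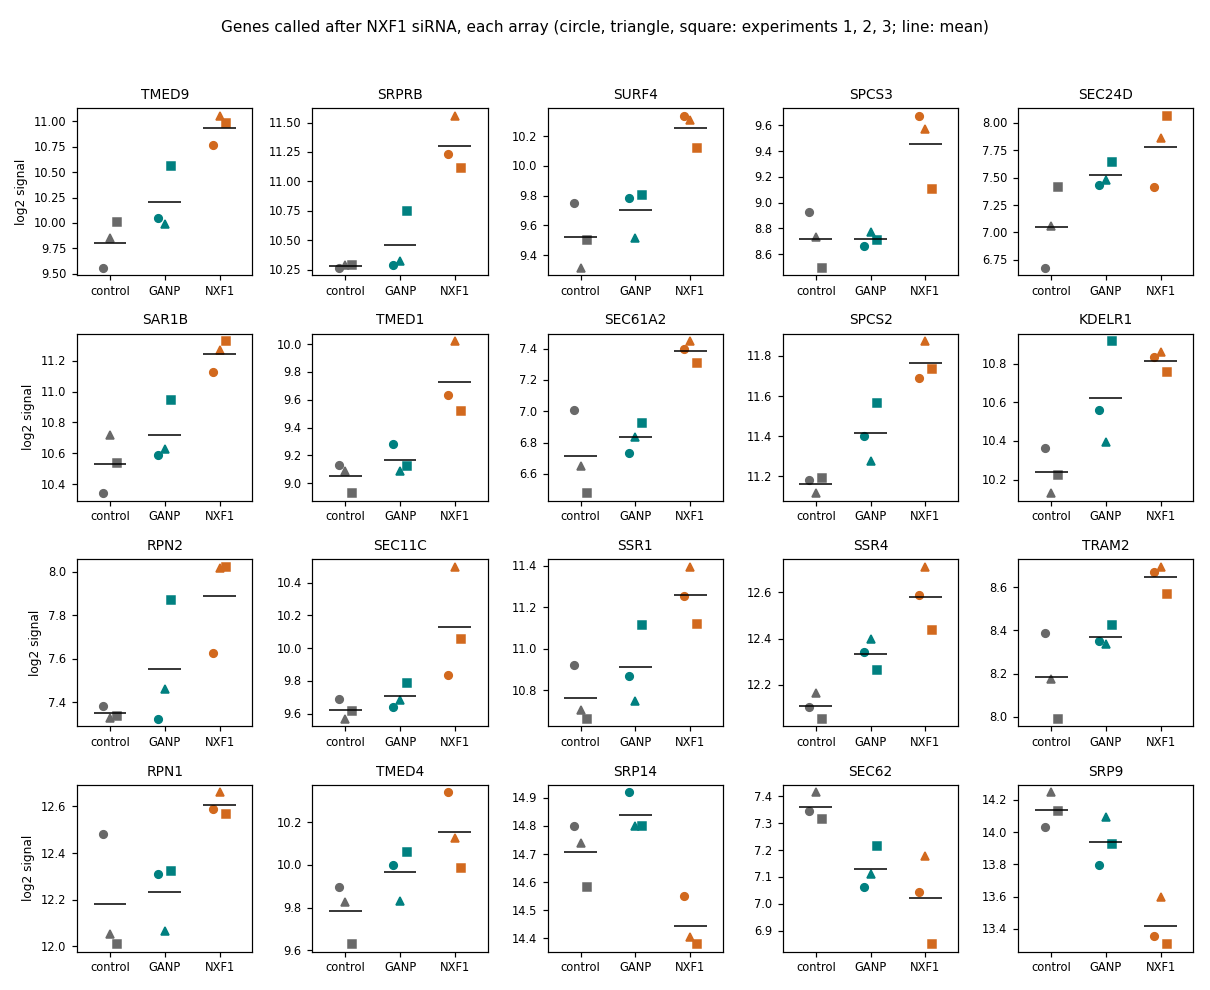
Log2 signal (y axis) of each array for the 20 genes called after NXF1 siRNA, in order of log2 fold change, with control, GANP and NXF1 siRNA on the x axis, a symbol per experiment and a line at the mean. The NXF1 siRNA arrays lie above all controls in 16 of the 17 that rose (SEC24D overlaps) and below them in the 3 that fell.

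Compared directly, 14 of the 53 genes had lower signals after GANP siRNA than after NXF1 siRNA (26.4%, beside 8.29% of all genes tested) and 3 were higher (5.66%, beside 11.3%). Of the 17 genes that rose after NXF1 siRNA, 11 were among the 14: SRPRB, SEC61A2, SSR1, SPCS2, SPCS3, SEC11C, RPN1, TMED1, TMED9, SURF4 and SAR1B. Their differences (GANP siRNA minus NXF1 siRNA) ran from -0.84 for SRPRB (SE 0.13, adjusted p = 8.6e-04) to -0.35 for SSR1 (SE 0.11, adjusted p = 0.044). The other 3 of the 14 were SRP72 (-0.34), TMED5 (-0.29) and TMED7 (-0.43), which were called in neither comparison with control siRNA. The 3 that were higher with GANP siRNA were SRP9 (0.52, SE 0.10, adjusted p = 0.0040), SRP14 (0.40, SE 0.09, adjusted p = 0.0064) and SEC11A (0.27, SE 0.08, adjusted p = 0.027). For the 6 other genes that rose after NXF1 siRNA (TRAM2, SSR4, RPN2, TMED4, KDELR1 and SEC24D) the difference between the depletions missed the threshold, from -0.34 for RPN2 (SE 0.14, adjusted p = 0.11) to -0.19 for TMED4 (SE 0.11, adjusted p = 0.26). With the experiment number as a block, RPN2 (adjusted p = 0.044), TRAM2 (0.037) and SSR3 (0.0074) were also lower with GANP siRNA. The count of 14 fell to 8 without GANP array 1, 7 without GANP array 2, 7 without NXF1 array 2 and 9 without control array 2. The shares of all genes in these refits are not given here. Calls of RPN1, SEC11C, SSR1, SRP72, TMED5, TMED7, SPCS2 and SEC11A were the ones lost in these refits or others that left out 1 array, with adjusted p up to 0.175 for RPN1.

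Promoters are shown for the genes with the largest rises after NXF1 siRNA that have one in the table, and for called genes that hold the unfolded protein response element (UPRE). The sequences are RefSeq's (GRCh38.p14), 250 bases before to 50 bases after a transcript start, and 48 of the 57 genes matched (61 windows). Capitals mark the UPRE letters TGACGTGG and the shorter CCACG, which is part of the UPRE on its other strand, wherever either is found on either strand.
SRPRB, chr3:133805565-133805864, plus strand: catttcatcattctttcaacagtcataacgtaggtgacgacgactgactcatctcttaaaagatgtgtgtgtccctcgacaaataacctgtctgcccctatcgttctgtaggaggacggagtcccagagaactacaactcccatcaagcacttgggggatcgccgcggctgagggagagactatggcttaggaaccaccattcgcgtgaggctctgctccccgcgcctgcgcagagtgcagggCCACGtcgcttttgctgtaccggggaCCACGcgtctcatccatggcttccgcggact
SURF4, chr9:133376011-133376310, minus strand: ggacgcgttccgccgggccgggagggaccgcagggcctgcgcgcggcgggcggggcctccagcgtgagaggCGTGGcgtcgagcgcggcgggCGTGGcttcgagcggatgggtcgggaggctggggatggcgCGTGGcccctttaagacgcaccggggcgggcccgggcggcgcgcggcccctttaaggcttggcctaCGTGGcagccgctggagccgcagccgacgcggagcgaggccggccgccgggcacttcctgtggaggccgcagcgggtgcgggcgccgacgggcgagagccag
SPCS3, chr4:176319716-176320015, plus strand: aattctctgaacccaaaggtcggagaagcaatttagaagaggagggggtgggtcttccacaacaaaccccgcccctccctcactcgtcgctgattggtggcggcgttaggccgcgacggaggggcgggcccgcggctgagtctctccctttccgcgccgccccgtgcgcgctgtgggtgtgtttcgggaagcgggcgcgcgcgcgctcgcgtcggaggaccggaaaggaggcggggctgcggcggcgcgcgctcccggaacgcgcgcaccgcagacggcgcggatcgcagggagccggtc
SAR1B, chr5:134632779-134633078, minus strand: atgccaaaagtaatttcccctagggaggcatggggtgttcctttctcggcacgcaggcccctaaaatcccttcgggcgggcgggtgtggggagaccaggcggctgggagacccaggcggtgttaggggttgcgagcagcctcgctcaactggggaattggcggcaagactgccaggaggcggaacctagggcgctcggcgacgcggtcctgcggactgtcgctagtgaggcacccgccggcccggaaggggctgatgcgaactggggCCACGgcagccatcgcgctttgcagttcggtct
SSR4, chrX:153794418-153794717, plus strand: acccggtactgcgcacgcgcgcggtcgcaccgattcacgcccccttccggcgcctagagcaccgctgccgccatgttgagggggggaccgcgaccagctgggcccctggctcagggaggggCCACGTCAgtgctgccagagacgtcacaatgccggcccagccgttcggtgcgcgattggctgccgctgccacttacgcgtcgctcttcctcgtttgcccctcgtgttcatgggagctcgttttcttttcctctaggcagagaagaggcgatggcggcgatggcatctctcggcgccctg
SEC62, chr3:169966557-169966856, plus strand: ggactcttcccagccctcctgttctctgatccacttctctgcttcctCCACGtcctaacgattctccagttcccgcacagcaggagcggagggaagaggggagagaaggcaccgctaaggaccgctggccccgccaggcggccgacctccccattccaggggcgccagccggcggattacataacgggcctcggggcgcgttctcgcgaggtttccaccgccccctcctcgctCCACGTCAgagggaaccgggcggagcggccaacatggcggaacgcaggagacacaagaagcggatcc
SEC23A, chr14:39103186-39103485, minus strand: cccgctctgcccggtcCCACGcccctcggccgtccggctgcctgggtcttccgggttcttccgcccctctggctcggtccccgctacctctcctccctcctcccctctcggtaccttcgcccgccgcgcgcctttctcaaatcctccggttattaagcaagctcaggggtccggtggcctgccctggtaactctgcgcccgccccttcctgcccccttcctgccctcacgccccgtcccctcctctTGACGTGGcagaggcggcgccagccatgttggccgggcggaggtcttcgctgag
The first 4 belong to genes that rose by 0.71 to 1.02 after NXF1 siRNA. SPCS3 holds neither motif in this window, SAR1B holds 1 copy of CCACG, SRPRB 2 and SURF4 4. The last 3 hold the UPRE, and were called in different ways: SSR4 rose and SEC62 fell after NXF1 siRNA, and SEC23A rose after GANP siRNA.

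Over all windows of a gene, 7 of the 48 matched genes held the UPRE (14.6%), beside 0.927% of 27305 genes with a promoter. Of the matched genes tested 15.6% held it, beside 1.19% of all genes tested. Of 13 matched genes that rose after NXF1 siRNA, 1 held it (SSR4), and of the 32 other tested genes 6 did (SRP19, SEC62, SSR3, KDELR3, SEC23A and SEC24A). The CCACG letters were in 79.2% of the matched genes and 42.1% of all genes with a promoter. They were in 77.8% of the matched genes tested and 55.0% of all genes tested, and in 10 of the 13 that rose and 25 of the 32 others. The ER stress element (CCAAT, then 9 bases of any kind, then CCACG) was in 0 of the 48 and in 0.0916% of all genes, and its second form (ATTGG, 1 base of any kind, CCACG) in 0 and 0.0696%. The letters TGATGNAA, the composite site of ATF4, were in 1 of the 48 (SRPRB) and in 4.46% of all genes. The motifs were searched on both strands, each as exact letters, with N for any base. These are letter matches and carry no test.

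A list of genes of the unfolded protein response, which ER stress sets off, was examined beside these. Of 21 measured genes, 13 rose (61.9%, beside 11.6% of all genes tested) and 0 fell (14% of all genes) after NXF1 siRNA, at a median of 0.39 on the log2 scale. After GANP siRNA 3 rose (14.3%, beside 6.28%) and 0 fell (5.9% of all genes), with a median of 0.13. DDIT3, which encodes the stress factor CHOP, gave log2 signals of 8.55, 8.32 and 8.62 with control siRNA, 9.11, 8.99 and 9.33 with GANP siRNA and 11.09, 11.33 and 11.54 with NXF1 siRNA. The 3 groups did not overlap, and DDIT3 rose by 2.82 after NXF1 siRNA (SE 0.13, adjusted p = 1.3e-07) and by 0.65 after GANP siRNA (SE 0.13, adjusted p = 0.0059). After NXF1 siRNA the co-chaperone DNAJC3 rose by 1.13 (SE 0.13), the sensor ATF6 by 0.96 (SE 0.09) and the co-chaperone DNAJB11 by 0.66 (SE 0.12). HSPA5, which encodes the chief ER chaperone BiP, had a log2 fold change of 0.13 (SE 0.22, adjusted p = 0.72), with control arrays from 7.70 to 8.25 and NXF1 siRNA arrays from 7.87 to 8.38. After GANP siRNA DNAJC3 rose by 0.53 (SE 0.13, adjusted p = 0.021) and the transcription factor CREB3L2 by 0.31 (SE 0.09, adjusted p = 0.043). The DNAJC3 call after GANP siRNA was lost without control array 2 or 3 or GANP array 1 or 3 (adjusted p 0.055 to 0.075). That of CREB3L2 was lost without control array 2 or 3, GANP array 2 or 3 or NXF1 array 2 or 3 (adjusted p 0.054 to 0.17). After NXF1 siRNA the calls of HYOU1, SYVN1 and CREB3L2 were each lost when any of 5 single arrays was left out. Their adjusted p then reached 0.173, 0.147 and 0.105. MANF lost its call after NXF1 siRNA without NXF1 array 2 (adjusted p = 0.0545).

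Neighbouring coat lists were counted in the same way. Of 10 measured genes of the COPI coat, which returns vesicles from the Golgi to the ER, 3 rose after GANP siRNA (30%, beside 6.28% of all genes). They were COPA (0.36), COPE (0.31) and COPB1 (0.28). After NXF1 siRNA 1 rose (10%, beside 11.6%), COPE at 0.25. In both comparisons 0 fell, beside 5.9% of all genes after GANP siRNA and 14% after NXF1 siRNA. Each COPI call was lost when single arrays were left out, 4 of the 9 for COPA and for COPE and 8 of the 9 for COPB1 after GANP siRNA (adjusted p up to 0.17), and 5 of the 9 for COPE after NXF1 siRNA (adjusted p up to 0.115), where COPE also fell short of the fold threshold with the mean of its probes (0.22). Of 25 genes for COPII assembly, tethering and exit sites, 0 were called after GANP siRNA, beside 6.28% of all genes up and 5.9% down. After NXF1 siRNA 3 rose (12%) and 4 fell (16%), shares close to those of all genes (11.6% and 14%). Those that rose were CNIH4 (0.72, SE 0.14), a cargo adaptor, ERGIC2 (0.57, SE 0.10) and BCAP31 (0.54, SE 0.12). Those that fell, each a subunit of a TRAPP tethering complex, were TRAPPC9 (-0.56, SE 0.10), TRAPPC12 (-0.36, SE 0.09), TRAPPC11 (-0.27, SE 0.08) and TRAPPC3 (-0.27, SE 0.08). TRAPPC11 was no longer called with the mean of its probes (log2 fold change -0.03, adjusted p = 0.80). TRAPPC3 was lost without control array 1 or 2 or NXF1 array 2 or 3, and TRAPPC11 without control array 1 or 3 or NXF1 array 2 or 3 (adjusted p 0.054 to 0.099 over both).

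**Figure D4:**
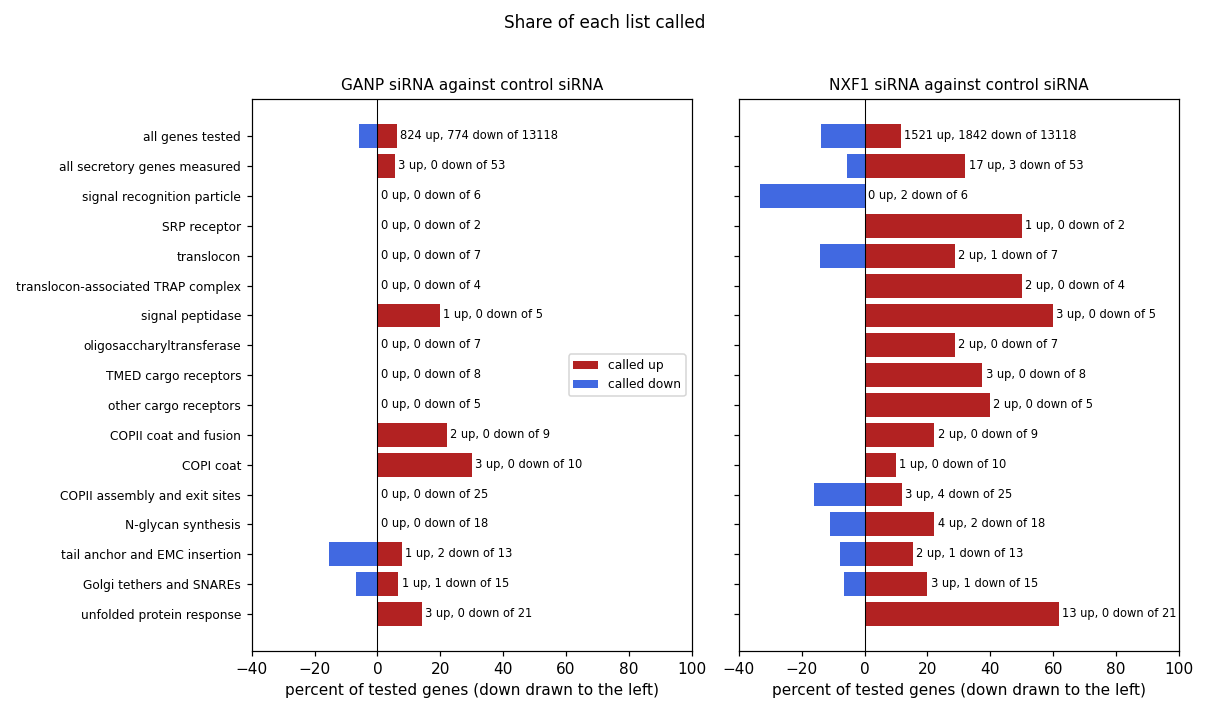
Percent of tested genes called up (right) and down (left, drawn below 0) for all genes tested, all 53 measured genes, each subgroup and 6 neighbouring lists, after GANP siRNA (left panel) and NXF1 siRNA (right panel), with counts printed beside the bars. In the fit without a block, 32.1% of the 53 genes were called up after NXF1 siRNA against 11.6% of all genes, and 5.66% against 6.28% after GANP siRNA.

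Other RNAs differed between the same groups. RN7SK, the 1 nuclear RNA tested of 4 listed, rose by 2.51 after NXF1 siRNA (SE 0.16) and by 1.12 after GANP siRNA (SE 0.16). MALAT1, also listed, is the RNA by which the paper checked its fractionation, which it called efficient. Of the 6 epithelial markers that passed the filter, 4 rose after NXF1 siRNA (66.7%, beside 11.6% of all genes tested). The summed level of all 10 epithelial markers, passed or not, was 15.94 to 16.02 on the log2 scale with control siRNA and 15.97 to 16.06 with GANP siRNA. With NXF1 siRNA it was 16.25 to 16.26, so the NXF1 siRNA arrays lay above the rest. Their part in the rises above was not tested. Of the fibroblast markers 2 of 6 passed the filter, and the summed level of all 6 was 8.85 to 8.98 over the 9 arrays. Of the blood markers 2 of 5 passed, and the summed level of all 5 was 8.66 to 8.93.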

How the data were processed

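Cytoplasmic RNA was measured on 9 arrays, 3 per siRNA group. The authors imported the scanned data into BeadStudio, applied quantile normalization and deposited linear intensity values for 48803 probes; the submitters' notes name lumi (version not given). A table of signals that were not normalized has 18 columns that no label pairs with a sample, and it was not used here. From the deposited intensities, log2 signals were computed here with limma 3.58.1 under R 4.3.3: normexp background correction (offset 50), quantile normalization and log2. The second quantile normalization follows earlier processing of these data, and its removal was an alternative. Probes had 1 gene symbol (27578), several (13) or none (21212), and those with 1 were kept where their average log2 signal exceeded 6.35, the median over the probes, with the brightest probe standing for a gene, which gave 13118 genes. All 9 arrays were fitted together with lmFit and eBayes (residual degrees of freedom 6, prior 6.43), with Benjamini-Hochberg adjustment in each comparison. The number of arrays limits the precision.

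The genes, the lists and the tests were chosen with earlier results of these data known. Every one of the 57 genes called in any comparison was named. Array values were given for the called genes with the largest changes of a subgroup (at most 4) and for paralogues or partners compared with them, and from other lists up to 4 called genes were named. KRTCAP2, MLEC, HSPA5, RN7SL1 and RN7SK, the further probes of a gene and the promoters shown were picked after their values were seen where the rule did not name them. Arrays with the same experiment number deviated together from their group means (correlations across genes of 0.107 to 0.461 for the 9 pairs that share a number, -0.40 to 0.12 for the 18 that do not), and the labels give the numbers, so values with the experiment number as a block were given where the call changed. Alternatives were this block, no background correction, no second quantile normalization, the authors' values as deposited, median scaling, no signal filter, a stricter signal filter, averaging of a gene's probes, separate fits of the groups compared, an intensity trend, other thresholds and leaving out each array.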

Additional observations from a re-analysis of the deposited data

Results flagged for a closer look

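Several genes have a further probe that was not used for the gene and that passed the call threshold in a fit over all 48803 probes. For SSR2, ILMN_1785037 changed by 1.44 on the log2 scale after NXF1 siRNA and -1.29 in GANP siRNA against NXF1 siRNA, while the used probe gave 0.11 and -0.01. For SRP9, ILMN_1759883 gave -0.76 after NXF1 siRNA and 0.51 in GANP siRNA against NXF1 siRNA, beside -0.72 and 0.52 for the used probe. For SAR1B, ILMN_2394296 gave 0.61 and -0.55, beside 0.71 and -0.52, and a dim further probe, ILMN_2287168, gave 0.09 and 0.01. For SRP14, ILMN_2234758 gave -0.33 after NXF1 siRNA, beside -0.26, neither called in that fit. In GANP siRNA against NXF1 siRNA it gave 0.43, beside 0.40. For TMED7, ILMN_2186482 gave -0.59 in the same comparison, beside -0.43. Of these genes SSR2 had probes that differed in whether they were called in the fit over all probes, with the reason not tested, and SAR1B had 1 dim probe without a call.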

How the results depend on the processing

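The counts of genes that fell after GANP siRNA (0 in each alternative) and that were higher with GANP siRNA than with NXF1 siRNA (2 to 3 when 1 array was left out) kept to their values or close to them. The count that rose after NXF1 siRNA, 17, was 14 to 19 when 1 array was left out and 13 at an adjusted p under 0.01. The count that rose after GANP siRNA, 3, was 8 with a replicate block for the experiment, where 9.1% of all genes rose. It was 5 with an intensity trend, 5 at an adjusted p under 0.1 and 0 at an adjusted p under 0.01. It was 0 to 3 when 1 array was left out, with 0 without control array 2 and 1 without control array 3 or GANP array 1, 2 or 3 (a gene other than the 3 without control array 3 or GANP array 2). The count that fell after NXF1 siRNA, 3, was 1 at an adjusted p under 0.01 and 1 to 3 when 1 array was left out, with 1 without control array 2 or NXF1 array 3. The count with lower signals after GANP siRNA than after NXF1 siRNA, 14, was 7 at an adjusted p under 0.01 and 7 to 14 when 1 array was left out. The cause of these changes was not tested. Except for the block, the shares of all genes called under these settings are not given here, so these counts cannot be set against them.

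With the replicate block, which pairs arrays of one experiment, the 17 genes that rose and the 3 that fell after NXF1 siRNA were all still called, with DDOST, LMAN2, OSTC and SRP72 added to the first (21 in all) and SEC63 to the second (4). Under the same block 13.7% of all genes tested rose and 15.8% fell. The 3 that rose after GANP siRNA were joined by KDELR1, SEC24D, SEC61B, SRP54 and TMED9 (8 in all), where 9.1% of all genes rose. Under the block 0 fell after GANP siRNA, where 8.49% of all genes did. The 14 lower with GANP siRNA became 17, and 10.7% of all genes were lower. Over the log2 fold changes of named genes under all alternatives, 4881 kept their side of the threshold, 326 lost the call and 54 gained a call. In 0 cases did the direction reverse with a call in either setting. A change of sign without a call in either setting was counted among the 4881. In separate fits of the groups compared, SSR1, SEC11A, SEC11C, SRP72, TMED5 and TMED7 lost their calls between the depletions (adjusted p 0.055 to 0.070). Signal over background limits SEC62, SEC63, SEC61A2, SEC24A and LMAN1, whose log2 signals lie near the filter at 6.35. SEC24D and RPN2 are limited likewise in the control group, where their mean log2 signals were 7.05 and 7.35 (SEC62 7.36).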

Other observations

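Genes for building the N-linked glycan, which the oligosaccharyltransferase transfers, gave a mixed picture. Of 18 measured, 4 rose (22.2%, beside 11.6% of all genes tested) and 2 fell (11.1%, beside 14%) after NXF1 siRNA. With GANP siRNA 0 were called, beside 6.28% of all genes up and 5.9% down. The glucosyltransferases ALG5 (0.69, SE 0.13, adjusted p = 0.0023), ALG8 (0.39, SE 0.12, adjusted p = 0.029) and ALG10B (0.36, SE 0.11, adjusted p = 0.029) rose after NXF1 siRNA, as did ALG14 (0.57, SE 0.10, adjusted p = 8.9e-04), which anchors an early step. DPM3, which stabilises dolichol-phosphate mannose synthase, fell by 0.53 (SE 0.09, adjusted p = 0.0010) and PRKCSH, the beta subunit of glucosidase II, by 0.35 (SE 0.10, adjusted p = 0.021). The calls of ALG8 (5 arrays), ALG10B (4 arrays) and PRKCSH (3 arrays) were each lost when single arrays were left out, control array 2 and NXF1 array 2 among them for each, with adjusted p up to 0.11. PRKCSH also lost its call with the mean of its probes (log2 fold change -0.21, adjusted p = 0.080).

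Of 13 measured genes for inserting tail-anchored and multispanning membrane proteins, 2 rose (15.4%) and 1 fell (7.69%) after NXF1 siRNA, beside 11.6% and 14% of all genes, and 1 rose (7.69%) and 2 fell (15.4%) after GANP siRNA, beside 6.28% and 5.9%. EMC7, a subunit of the ER membrane protein complex, rose by 0.93 after NXF1 siRNA (SE 0.12, adjusted p = 1.0e-04). GET4, which works with the tail-anchor factor BAG6, rose by 0.45 after NXF1 siRNA and by 0.40 after GANP siRNA (SE 0.09 in each), and with the mean of its probes neither was called (log2 fold changes 0.13 and 0.13). GET4 was also not called after GANP siRNA without control array 3 (adjusted p = 0.055). CAMLG, part of the receptor for tail-anchored proteins, fell by 0.34 after NXF1 siRNA (SE 0.10, adjusted p = 0.026), a call lost without control array 1 or 2 or NXF1 array 2 or 3 (adjusted p 0.084 to 0.10). SGTA and EMC8 fell by 0.29 and 0.27 after GANP siRNA, calls lost without 8 and 5 of the single arrays (adjusted p up to 0.19). Among 15 Golgi tethers and SNAREs, 3 rose (20%) and 1 fell (6.67%) after NXF1 siRNA, beside 11.6% and 14% of all genes. After GANP siRNA 1 rose and 1 fell (6.67% each), close to the 6.28% and 5.9% of all genes. GOSR2 (0.52, SE 0.10), SCFD1 (0.39, SE 0.08) and USE1 (0.27, SE 0.09) rose and BET1 (-0.50, SE 0.10) fell after NXF1 siRNA, and SCFD1 (0.28, SE 0.08) rose and BNIP1 (-0.30, SE 0.08) fell after GANP siRNA. The USE1 call (5 arrays) and both GANP siRNA calls (7 arrays for SCFD1 and 6 for BNIP1) were lost when single arrays were left out, control arrays 1 and 2 among them for each, with adjusted p up to 0.15.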
